A study of Caenorhabditis elegans with 16 samples.

Results

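The nhr genes, named for nuclear hormone receptors, were taken as all 267 protein-coding genes of Caenorhabditis elegans whose name in the Ensembl annotation of WBcel235 starts with nhr-, without nhr-23 and nhr-25. An accessible region, or peak, was assigned to them when its midpoint lay within 1 kb of an annotated transcript 5′ end of such a gene. Of 29131 peaks in the series, 226 met this rule, and they lay at 151 of the 267 genes. The rule used names and positions and no accessibility value.

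Nuclear hormone receptors are transcription factors that bind DNA through a zinc finger domain and often respond to small lipophilic ligands through a second domain. In nematodes the family has expanded far beyond that of other animals, and most of the additional members descend from a relative of HNF4, a vertebrate receptor of liver and gut. Worm receptors with a known role act in fat metabolism, in responses to diet, toxins and pathogens, in molting and in the timing of development.

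Accessibility was measured by ATAC-seq, in which the transposase Tn5 inserts sequencing adapters into open chromatin, in whole L1 larvae with 4 replicates of each of 4 strains. RPOA-2 depleted larvae carried rpoa-2::degron, a tag on a subunit of RNA polymerase I that marks it for auxin-dependent degradation, together with eft-3p::tir-1, a transgene that makes the plant F-box protein TIR1 from the eft-3 promoter. RPOA-2 undepleted larvae carried the same degron without TIR1. GRWD-1 depleted larvae carried the degron on GRWD-1, a ribosome assembly factor that the sample labels call rrb-1, with the same TIR1 transgene, and GRWD-1 undepleted larvae carried that degron alone. Every strain received 1 mM auxin at 23 °C, the depleted larvae for 24 h and the undepleted larvae for 18 h because the strains with TIR1 grow more slowly. Depletion, transgene, strain and later collection therefore cannot be told apart. Each strain's larvae were split into its 4 replicates after collection, so p-values measure the spread between these samples, which may be technical. Since whole animals were used, fewer cells of a type and lower accessibility per cell cannot be told apart.

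The libraries held 2337415 to 13010378 counted reads each. The median nhr peak held 48 to 268 counts per library, and no nhr peak was at 0 in any library. Levels are given as CPM, each peak's share of a library's counted reads, scaled by the trimmed mean of M-values (TMM) method. The peak at eft-3, whose promoter drives the transgene, had 210.1 ± 16.4 CPM in RPOA-2 depleted larvae and 176 ± 13.5 CPM in RPOA-2 undepleted larvae, and 200.3 ± 23.3 CPM in GRWD-1 depleted larvae and 172 ± 9.59 CPM in GRWD-1 undepleted larvae (mean ± SD, n = 4 each). Replicate 2 had the highest sum over the nhr peaks in 3 strains. The 226 nhr peaks together held 6701, 7852, 6920 and 6716 CPM in the 4 RPOA-2 depleted replicates, against 6518, 7140, 6956 and 7165 CPM in the RPOA-2 undepleted ones. The same sum was 6820, 8420, 7454 and 7189 CPM in the GRWD-1 depleted replicates, against 6933, 7934, 7035 and 7185 CPM in the GRWD-1 undepleted ones. The second value was the highest in RPOA-2 depleted, GRWD-1 depleted and GRWD-1 undepleted larvae, and the sums overlapped between depleted and undepleted larvae of both degrons.

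In L1 larvae, 56.6% of the nhr genes (151 of 267) had an accessible region near a 5′ end, beside 49.5% of all annotated protein-coding genes (9888 of 19973) by the same rule. The 116 nhr genes without a peak include nhr-8, which acts in cholesterol balance and toxin resistance, nhr-10, a regulator of propionate breakdown, and nhr-67, the worm counterpart of tailless. A gene without a peak is one with no peak midpoint within 1 kb of an annotated 5′ end. Regions centred farther off are not counted, so the lack of a peak does not show that the chromatin was closed.

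Most nhr genes lie on chromosome V, where 167 of the 267 are found. There, 89 genes (53.3%) had a peak, beside 43.1% of all protein-coding genes of that chromosome. On the other chromosomes together, 62 of 100 nhr genes (62%) had one, beside 51.6% of protein-coding genes. The nhr share was thus above that of all coding genes both on and off chromosome V. The share was lowest on chromosome I, with 10 of 22 genes, and highest on chromosome III, with 6 of 8 genes. Chromosome V held 50.4% of the nhr peaks but 18.6% of all peaks.

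**Figure D1:**
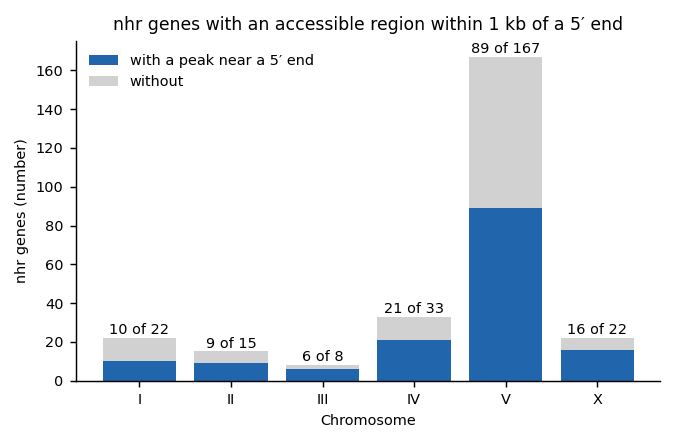
Number of nhr genes on each chromosome, with the genes that have a peak midpoint within 1 kb of an annotated 5′ end in blue and the genes without one in grey. Chromosome V holds 167 genes, 89 of them with a peak, and each other chromosome holds between 8 and 33 genes.

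Many nhr genes stand beside another member of the family. Of the 142 genes within 5 kb of another nhr gene, 77 (54.2%) had a peak, and of the 125 genes farther away, 74 (59.2%) had one. On chromosome V alone the order was the other way round, with 64 of 112 close genes (57.1%) and 25 of 55 farther genes (45.5%). No order by neighbourhood therefore held throughout.

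Most receptors with a peak had a single one. This was the case at 100 genes, while 36 genes had 2 peaks, 8 had 3, 5 had 4, nhr-34 had 5 and nhr-21 had 6. The genes with 4 peaks were nhr-1, nhr-6, nhr-41, nhr-66 and nhr-85. Several of these are counterparts of receptors found across animals: nhr-6 of the NR4A receptors, nhr-41 of the TR2 and TR4 receptors and nhr-85 of Rev-Erb. Other listed counterparts had fewer peaks: nhr-91 had 3, nhr-64 had 2, nhr-48 and nhr-111 had 1, and nhr-8 and nhr-67 had 0. Peaks near every annotated 5′ end of a gene count, and the number of such ends was not taken into account.

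The peaks lay close to their 5′ ends. Midpoints were upstream in 120 peaks and at or downstream of the 5′ end in 106, at a median distance of 281 bp, and 150 of the 226 lay within 500 bp. Coding sequence was overlapped by 142 peaks and a 5′ UTR by 91, while 12 lay wholly in introns and 43 overlapped no annotated gene. In 203 peaks the nearest 5′ end was that of an nhr gene and in 23 it was that of another gene, so the signal of the 23 may not belong to the receptor. A single peak was within 1 kb of both nhr-94 and nhr-152. At the edge of the rule, the farthest included midpoints were those at nhr-254, nhr-27 and nhr-30, at 998, 996 and 992 bp.

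Per length of peak, the nhr peaks were slightly more accessible than the peaks of the series. Their median level over all libraries was 55.7 CPM per kb, beside 52.4 CPM per kb for all peaks, and 138 of 226 (61.1%) were above that of all peaks. The range was 38.7 to 207.0 CPM per kb, and 32 nhr peaks (14.2%) were in the top 10% of all peaks. The peaks of the series were not limited to regions near a 5′ end, as the nhr peaks were. The part of this difference in position was not tested. Replicates of a group varied by similar amounts at nhr peaks and elsewhere: the median coefficient of variation was 14.3% to 15.8% in the 4 groups, beside 13.7% to 14.9% for all peaks.

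The highest levels per length were at receptors of the X chromosome. The peak within 1 kb of nhr-255 (X:15741745-15742330) had 207 CPM per kb, but its nearest 5′ end was that of the gene WBGene00014626. The peak at nhr-1 (X:17513067-17514107) had 175 CPM per kb with RPOA-2 undepleted replicate 1 below the others of its group, and that at nhr-40 (X:2598462-2599545), a receptor of muscle development, 137 CPM per kb. These were the top 3 of the 226, and all 3 were above 98.9% of the peaks of the series. The lowest 3 were at nhr-56 (V:2220639-2220849), nhr-4 (IV:9878837-9879301) and nhr-265 (I:12251378-12252005), with 39.3, 38.9 and 38.7 CPM per kb, all within the lowest 5.02% of all peaks.

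In RPOA-2 depleted larvae against RPOA-2 undepleted larvae, 3 nhr peaks rose and 2 fell at an adjusted p under 0.05. The rises were at nhr-64, nhr-48 and nhr-157, and the falls at nhr-66 and nhr-114. These shares were 1.33% and 0.885% of the nhr peaks, and over all peaks 1.2% rose and 0.487% fell. The share of rises was close to that of all peaks. The share of falls was higher, but it rests on 2 peaks, and the difference was not tested. At an unadjusted p under 0.05, 14 nhr peaks were higher and 13 were lower, beside 6.9% and 5.36% of all peaks in those directions. Calls rest on edgeR (quasi-likelihood test, Benjamini-Hochberg over all 29131 peaks), with genotype and 2 factors of unwanted variation fitted over the 16 libraries. The factors matter for the calls: with 0 factors or 1 factor no nhr peak passed the threshold in either depletion, where 0.117% and 0.457% of all peaks passed in RPOA-2 and 0.137% and 0.549% in GRWD-1. DESeq2 called 4 nhr peaks higher, beside 1.34% of all peaks, and 3 lower, beside 0.587%, upon RPOA-2 depletion. These were the 5 peaks above together with nhr-228 and nhr-46, the added pair being named after the values were seen. The second factor moved with depth over the libraries (Pearson's r of 0.76 and Spearman's rho of 0.68 with the log10 of the total count, n = 16, as a description), and its part in the calls was not tested beyond these fits.

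The peak at nhr-64, a receptor among those most like vertebrate HNF4, rose upon RPOA-2 depletion. It spans I:3101606-3102228 over the 5′ UTR and coding sequence, with its midpoint 66 bp downstream of the 5′ end. It had 51.5, 86.1, 45.9 and 54.6 CPM in RPOA-2 depleted larvae, against 37.5, 45.3, 40.2 and 38.8 CPM in RPOA-2 undepleted larvae. All 4 depleted libraries were above all 4 undepleted ones, and replicate 2 of the depleted larvae was far above the rest. The fitted log2 fold change was 0.43 (SE 0.10, adjusted p = 0.00471) by edgeR's quasi-likelihood test. Without that replicate the log2 fold change was 0.19 and edgeR's adjusted p was 0.832, and the call was also lost without undepleted replicate 1, 3 or 4. When the control peaks came from the GRWD-1 strains, the log2 fold change was 0.18 (edgeR adjusted p = 0.679). In GRWD-1 the peak had 50.6, 83.9, 51.4 and 50.3 CPM in GRWD-1 depleted larvae, against 45.7, 62.9, 39.1 and 43.5 CPM in GRWD-1 undepleted larvae, and these groups overlapped, with a log2 fold change of 0.26 (SE 0.09, adjusted p = 0.139) by edgeR.

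The peak at nhr-48, a relative of the vitamin D receptor and of DAF-12, also rose upon RPOA-2 depletion. It lies at X:15707199-15707997, 615 bp upstream of the 5′ end, and overlaps no annotated gene. It had 101, 181, 103 and 104.2 CPM in RPOA-2 depleted larvae, against 73.8, 103, 86.5 and 83.7 CPM in RPOA-2 undepleted larvae. Depleted replicate 2 again stood far above the others, and the highest undepleted library lay within the depleted group. The log2 fold change was 0.37 (SE 0.08, adjusted p = 0.00544) by edgeR's quasi-likelihood test, and without depleted replicate 2 it was 0.14 with an adjusted p of 0.875. As at nhr-64, the call was also lost without undepleted replicate 1, 3 or 4, and with control peaks of the GRWD-1 strains it was lost with a log2 fold change of 0.09 (edgeR adjusted p = 0.837). Upon GRWD-1 depletion the peak had a log2 fold change of 0.13 (SE 0.08, adjusted p = 0.559) by edgeR.

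The peak at nhr-157 was the only nhr peak that passed the threshold in both depletions, and it rose in both. One such peak is 0.442% of the nhr peaks, and 0.443% of all peaks were called in the same direction in both. It lies at V:3868549-3869149 over coding sequence, with its midpoint 156 bp downstream of the 5′ end. It had 45.9, 34.5, 51.0 and 41.1 CPM in RPOA-2 depleted larvae, against 28.9, 31.4, 28.2 and 33.9 CPM in RPOA-2 undepleted larvae. In GRWD-1 it had 38.1, 46.3, 38.6 and 39.5 CPM in GRWD-1 depleted larvae, against 35.9, 29.3, 31.9 and 25.3 CPM in GRWD-1 undepleted larvae. In both degron strains every depleted library was above every undepleted library, with no library far from its group. The log2 fold change was 0.47 (SE 0.12, adjusted p = 0.0124) in RPOA-2 and 0.38 (SE 0.11, adjusted p = 0.0392) in GRWD-1 by edgeR's quasi-likelihood test. The RPOA-2 call remained in 11 of the 16 fits that left out 1 library, where the log2 fold change ranged from 0.39 to 0.55, and the GRWD-1 call in 6 of 16, where it ranged from 0.25 to 0.51. Some of the 16 fits left out a library of the other degron, which is not in the comparison itself. The RPOA-2 call was lost without RPOA-2 undepleted replicate 1 or 3 or depleted replicate 1, 2 or 3. Within GRWD-1, its call was lost without any 1 of the depleted replicates or undepleted replicate 2, 3 or 4. Of 12 fits with other settings, 9 kept the RPOA-2 call and 4 kept the GRWD-1 call, with log2 fold changes in GRWD-1 of 0.34 to 0.39 and adjusted p of 0.036 to 0.483. Among these 12, here and at the other called peaks, the fit without a filter repeats the main fit. The filter removed 0 peaks, so that fit keeps each call by construction. The presence of nhr-157 in both depletions therefore depended on the fit.

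The peak at nhr-66 fell upon RPOA-2 depletion. NHR-66 acts with NHR-49 on genes of lipid metabolism. The peak lies at IV:8228662-8229044 over coding sequence, 474 bp downstream of a 5′ end. It had 16.6, 20.0, 18.8 and 15.2 CPM in RPOA-2 depleted larvae, against 27.0, 24.2, 24.7 and 21.7 CPM in RPOA-2 undepleted larvae. All 4 depleted libraries were below all 4 undepleted ones. Fitted, the peak fell with a log2 fold change of -0.51 (SE 0.14, adjusted p = 0.0261) by edgeR, and it ranged from -0.68 to -0.43 when 1 library was left out, with the call kept in 10 of 16 fits. It was lost without RPOA-2 depleted replicate 1, 2 or 4 or undepleted replicate 1, 2 or 3, and kept in 8 of 12 fits with other settings. The other 3 peaks at nhr-66 did not pass the test, among them the more accessible peak at IV:8229115-8230505, with a log2 fold change of -0.01. The peak nearest to a 5′ end, at IV:8231426-8231755, had -0.32 (SE 0.17, adjusted p = 0.448 by edgeR). That at IV:8232331-8232988 had 0.06. Upon GRWD-1 depletion the called peak had 20.4, 24.2, 24.7 and 25.2 CPM in GRWD-1 depleted larvae, against 23.5, 26.5, 20.4 and 27.9 CPM in GRWD-1 undepleted larvae, which overlapped, and a log2 fold change of -0.07 (SE 0.12, adjusted p = 0.889) by edgeR.

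The peak at nhr-114, a receptor that acts in the response to diet and vitamin B12, fell upon RPOA-2 depletion by a smaller amount. It spans V:4186177-4189061, 2885 bp that also cover the gene Y45G5AM.9, so its reads cannot be given to nhr-114 alone. It had 181, 186, 196 and 156 CPM in RPOA-2 depleted larvae, against 192, 218, 223 and 218 CPM in RPOA-2 undepleted larvae. The depleted values were low, with the highest of them just above the lowest undepleted value. This gave a log2 fold change of -0.27 (SE 0.07, adjusted p = 0.0333) by edgeR, and the call remained in 8 of the 16 fits that left out 1 library and in 6 of 12 with other settings. It was lost without any 1 of the RPOA-2 undepleted replicates, or without RPOA-2 depleted replicate 2 or 4. Leaving out GRWD-1 undepleted replicate 1 or GRWD-1 depleted replicate 3 also ended it. In GRWD-1 the peak had 187, 218, 209.9 and 192 CPM in GRWD-1 depleted larvae, against 213, 257, 234.7 and 210.5 CPM in GRWD-1 undepleted larvae, and the log2 fold change was -0.20 (SE 0.07, adjusted p = 0.187) by edgeR.

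Upon GRWD-1 depletion, 3 nhr peaks rose, at nhr-117, nhr-4 and nhr-157, and none fell at an adjusted p under 0.05. The rises were 1.33% of the nhr peaks, beside 0.57% of all peaks. DESeq2 called 2 higher, beside 0.556% of all peaks, at nhr-117 and at nhr-131, and did not call nhr-4 or nhr-157. Falls were 0 of 226, beside 0.81% of all peaks, and DESeq2 also gave 0, beside 0.786% of all peaks. At an unadjusted p under 0.05 in edgeR, 21 nhr peaks were higher (9.29%, beside 5.36% of all peaks) and 8 were lower (3.54%, beside 5.47%).

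The peak at nhr-117 (V:1621273-1621932, 82 bp upstream of the 5′ end) overlaps the 5′ UTR and coding sequence. It had 30.6, 41.3, 43.0 and 34.5 CPM in GRWD-1 depleted larvae, against 24.3, 31.4, 26.8 and 25.3 CPM in GRWD-1 undepleted larvae. The depleted values were the higher ones, save that the lowest of them was below the highest undepleted value. The log2 fold change was 0.45 (SE 0.11, adjusted p = 0.00967) by edgeR's quasi-likelihood test. The call remained in 14 of the 16 fits that left out 1 library and was lost without depleted replicate 1 (log2 fold change 0.45, adjusted p = 0.051 by edgeR) or depleted replicate 3 (0.42, adjusted p = 0.0855), and it remained in 9 of 12 fits with other settings. In RPOA-2 the peak had 26.1, 34.2, 31.7 and 35.2 CPM in RPOA-2 depleted larvae, against 21.97, 23.6, 24.7 and 38.0 CPM in RPOA-2 undepleted larvae, which overlapped, with a log2 fold change of 0.27 (SE 0.12, adjusted p = 0.328) by edgeR.

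The peak at nhr-4 (IV:9878837-9879301, 260 bp upstream, over no annotated gene) had the largest rise of the called nhr peaks and the lowest level per length of them. It had 18.8, 28.2, 24.0 and 24.8 CPM in GRWD-1 depleted larvae, against 14.5, 19.5, 13.5 and 15.6 CPM in GRWD-1 undepleted larvae. The lowest depleted library was just below the highest undepleted one. The fit gave a log2 fold change of 0.56 (SE 0.15, adjusted p = 0.0307) by edgeR, and the call remained in 6 of the 16 fits that left out 1 library. It was lost without any 1 of the GRWD-1 depleted replicates, or without GRWD-1 undepleted replicate 1, 2 or 3. Leaving out RPOA-2 undepleted replicate 1 or 4 or RPOA-2 depleted replicate 2 also ended it. In DESeq2 the log2 fold change was 0.57 with an adjusted p of 0.34, so the call was lost there. It was kept in 6 of 12 fits with other settings, and with 3 factors the log2 fold change was 0.34 (edgeR adjusted p = 0.688). In RPOA-2 the values were scattered, with 8.78, 18.4, 15.0 and 24.6 CPM in RPOA-2 depleted larvae, against 12.8, 23.3, 11.4 and 16.0 CPM in RPOA-2 undepleted larvae, and the log2 fold change was -0.02 (SE 0.17, adjusted p = 0.981) by edgeR.

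**Figure D2:**
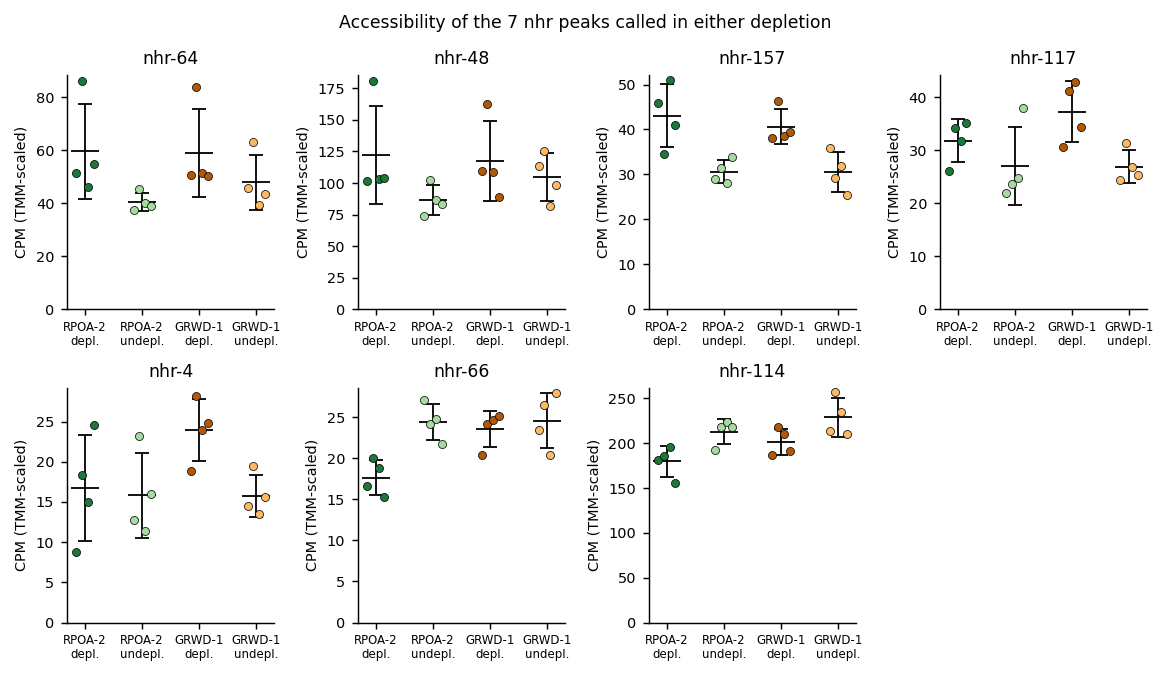
TMM-scaled CPM of the 7 nhr peaks called in either depletion, with 1 point per library, from left to right RPOA-2 depleted, RPOA-2 undepleted, GRWD-1 depleted and GRWD-1 undepleted larvae, and the mean ± SD of the 4 replicates. The groups do not overlap at nhr-157 in both degron strains, and depleted replicate 2 stands above the others at nhr-64 and nhr-48.

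Changes at the called peaks were small, with log2 fold changes between -0.51 and 0.56, and the calls changed when single libraries were left out. The number of nhr peaks called upon RPOA-2 depletion was 0 in both directions without RPOA-2 undepleted replicate 1, undepleted replicate 3 or depleted replicate 2. In these fits 0.614%, 0.487% and 0.117% of all peaks were called, beside 1.69% with all libraries, so calls fell over all peaks as well. Upon GRWD-1 depletion the number was 0 without GRWD-1 depleted replicate 1 or depleted replicate 3, where 0.978% and 0.776% of all peaks were called, beside 1.38% with all libraries. Just inside the threshold were nhr-114 in RPOA-2 and nhr-157 in GRWD-1, given above. Just outside it, and named after their values were seen, were nhr-228 with a log2 fold change of 0.42 in RPOA-2 (edgeR adjusted p = 0.0573) and nhr-131 with 0.35 in GRWD-1 (edgeR adjusted p = 0.059).

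Separation of the replicates gave a similar picture. All 4 RPOA-2 depleted libraries were above all 4 undepleted ones at 5 nhr peaks (2.21%, beside 2.13% of all peaks) and below them at 7 (3.10%, beside 2.49%). For GRWD-1 they were above at 8 nhr peaks (3.54%, beside 1.76% of all peaks) and below at 2 (0.885%, beside 2.12%). Of the 8 peaks with separate higher values in GRWD-1, 7 were on chromosome V, at nhr-252, nhr-131, nhr-90, nhr-157, nhr-154, nhr-291 and nhr-65, and the other was at nhr-62 on chromosome I. These peaks other than nhr-157 and nhr-62 were named after their values were seen.

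The 7 called peaks were next set side by side in both depletions. No nhr peak passed the test of the difference between both depletion effects, where 0.0103% of all peaks did. For the 7 called peaks the adjusted p of that test was between 0.745 and 0.986 by edgeR, which does not show that the effects were equal. For nhr-4 the difference, RPOA-2 effect minus GRWD-1 effect, was -0.58 on the log2 scale, with a 95% interval of -1.03 to -0.13. For nhr-66 it was -0.44, with an interval of -0.80 to -0.08, and for nhr-157 it was 0.09, with an interval of -0.22 to 0.40. For nhr-48 the difference was 0.24, with an interval of 0.01 to 0.47. The unadjusted intervals at nhr-4, nhr-66 and nhr-48 left out 0, while those at nhr-64, nhr-114, nhr-117 and nhr-157 held it. At an unadjusted p under 0.05, 16 nhr peaks (7.08%) differed in edgeR, beside 5.8% of all peaks.

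RPOA-2 depleted larvae were also compared directly with GRWD-1 depleted larvae, a comparison that holds the difference between the strains as well. No nhr peak passed the threshold in edgeR, beside 0.13% of all peaks, and DESeq2 gave 0 in this test and in that of the difference. At an unadjusted p under 0.05 in edgeR, 6 nhr peaks were higher in RPOA-2 depleted larvae (2.65%, beside 4.31% of all peaks). In the same test 11 were lower (4.87%, beside 2.78% of all peaks). Together these were 7.52% of the nhr peaks, beside 7.09% of all peaks. The nhr peaks thus leaned to lower values and all peaks to higher ones, which was not tested. For the receptors called in a single depletion, the direct log2 difference was 0.18 at nhr-64, 0.18 at nhr-48, -0.36 at nhr-66, -0.10 at nhr-114, -0.10 at nhr-117 and -0.33 at nhr-4, all without passing the test.

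**Figure D3:**
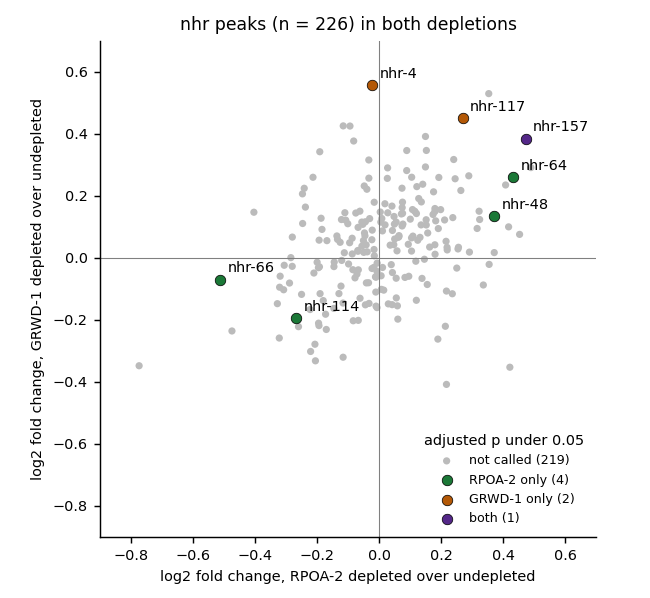
Log2 fold change of the 226 nhr peaks upon RPOA-2 depletion (x axis) and GRWD-1 depletion (y axis), each depleted over undepleted, with peaks at an adjusted p under 0.05 coloured and labelled. A single peak, nhr-157, is called in both, 4 are called in RPOA-2 and 2 in GRWD-1, and the 219 others lie within -0.77 to 0.49 on the x axis and -0.41 to 0.53 on the y axis.

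Most peaks at receptors with a described role did not change detectably. Of the 27 receptors in this set, 24 had a peak, and the peak nearest to a 5′ end was called at 3 of them upon RPOA-2 depletion (nhr-48, nhr-64 and nhr-114) and at 0 upon GRWD-1 depletion. The 95% interval of the log2 fold change held 0 at 19 of 24 in RPOA-2 and at 20 of 24 in GRWD-1. These intervals are not adjusted for the number of peaks. Over all peaks, 1.69% were called in RPOA-2 and 1.38% in GRWD-1, in either direction. The receptors and the role lists below were chosen with earlier results of these data known. Their counts were not tested against these shares.

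Among the receptors of lipid and fat metabolism, all 8 genes had peaks, 15 in number. Of these 1 rose (nhr-64) and 1 fell (nhr-66) upon RPOA-2 depletion and 0 changed upon GRWD-1 depletion by edgeR. The peak at nhr-49, the main worm regulator of fatty acid breakdown and desaturation, had 209, 279.6, 222 and 216 CPM in RPOA-2 depleted larvae, against 189, 237, 217 and 259 CPM in RPOA-2 undepleted larvae, and in GRWD-1 209.6, 301, 236 and 235.4 CPM in GRWD-1 depleted larvae, against 238, 291, 224 and 238 CPM in GRWD-1 undepleted larvae. The groups overlapped in both, and the log2 fold change was -0.01 (95% interval -0.15 to 0.13) in RPOA-2 and -0.04 (95% interval -0.18 to 0.09) in GRWD-1. This peak, the nearest to a 5′ end of nhr-49, also covers K10C3.5. Another nhr-49 peak, at I:9872703-9873708, overlaps nhr-49 alone. Its log2 fold change was -0.22 (95% interval -0.42 to -0.03, adjusted p = 0.302 by edgeR) in RPOA-2. In GRWD-1 it was -0.17 (95% interval -0.35 to 0.01, adjusted p = 0.510 by edgeR). That peak was therefore lower in both depletions without passing the threshold. The peak at nhr-80, which acts on fatty acid desaturases, had 30.0 ± 3.18 CPM in RPOA-2 depleted and 30.4 ± 3.34 CPM in RPOA-2 undepleted larvae, and 32.4 ± 2.91 CPM in GRWD-1 depleted and 35.2 ± 5.26 CPM in GRWD-1 undepleted larvae (mean ± SD, n = 4 each). Its log2 fold change was -0.01 (95% interval -0.24 to 0.22) in RPOA-2 and -0.11 (95% interval -0.32 to 0.09) in GRWD-1. At nhr-13, which also acts in lipid metabolism, the values were 0.26 (95% interval -0.05 to 0.57) and 0.22 (95% interval -0.05 to 0.49) in the same order, at nhr-62, which acts in the response to dietary restriction, 0.05 (95% interval -0.16 to 0.25) and 0.04 (95% interval -0.14 to 0.23), and at nhr-69 -0.20 (95% interval -0.51 to 0.12) and -0.21 (95% interval -0.48 to 0.06).

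In the list for propionate and vitamin B12, 2 of 3 genes had peaks, and of the 3 peaks 1 fell (nhr-114) upon RPOA-2 depletion and 0 changed upon GRWD-1 depletion by edgeR. Medians of the log2 fold change were -0.27 in RPOA-2 and -0.33 in GRWD-1. With 3 peaks, each median is the value of 1 peak. In RPOA-2 it is that of the nhr-114 peak. In GRWD-1 it is that of a peak at V:11572753-11573403, 362 bp upstream of a 5′ end of nhr-68. The nearest 5′ end to this peak was that of H12C20.7, the only gene it overlaps, so its signal may not belong to the receptor. NHR-68 switches on the propionate shunt, the pathway used when vitamin B12 is low. Its peak at V:11574635-11574803 was weak, with 3.32, 3.27, 7.52 and 6.99 CPM in RPOA-2 depleted larvae, against 6.61, 9.07, 6.12 and 11.8 CPM in RPOA-2 undepleted larvae. The groups overlapped, and depleted replicates 1 and 2 were the lowest. The log2 fold change was -0.77 (SE 0.24, adjusted p = 0.0765) by edgeR, the lowest of the 226 nhr peaks in RPOA-2 and outside the threshold.

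Receptors of stress, toxin, pathogen and iron responses had 7 peaks at 6 of 7 genes, and 0 were called in either depletion by edgeR. The peak at nhr-14, which acts in iron uptake, was the longest nhr peak, with 5127 bp that also cover T01B10.13. It had 308 ± 48.2 CPM in RPOA-2 depleted and 337 ± 31.1 CPM in RPOA-2 undepleted larvae, and 348 ± 34.7 CPM in GRWD-1 depleted and 379.6 ± 40.1 CPM in GRWD-1 undepleted larvae (mean ± SD, n = 4 each). The groups overlapped, with log2 fold changes of -0.18 (95% interval -0.32 to -0.04) in RPOA-2 and -0.14 (95% interval -0.27 to -0.01) in GRWD-1, and adjusted p of 0.196 and 0.417 by edgeR. At nhr-57, a gene induced by low oxygen, the log2 fold change was 0.13 (95% interval -0.08 to 0.34) in RPOA-2 and 0.19 (95% interval 0.00 to 0.38) in GRWD-1. At nhr-86, which acts in pathogen defence, it was 0.22 (95% interval -0.02 to 0.46) and 0.03 (95% interval -0.18 to 0.24) in that order, and at nhr-28 and nhr-45 it lay between -0.13 and 0.12 in both depletions.

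Counterparts of receptors conserved in other animals had 19 peaks at 7 of 9 genes, of which 2 rose (nhr-64 and nhr-48) upon RPOA-2 depletion and 0 changed upon GRWD-1 depletion by edgeR. The list for the molting cycle and developmental timing had 13 peaks at 4 of 5 genes, with 0 calls in either depletion. At nhr-85, the worm counterpart of Rev-Erb that acts in the timing of larval transcription, the nearest peak had log2 fold changes of -0.06 (95% interval -0.34 to 0.21) in RPOA-2 and -0.13 (95% interval -0.38 to 0.11) in GRWD-1. An intron peak of nhr-85, at I:13060305-13060814, had 0.35 (95% interval 0.12 to 0.59, adjusted p = 0.12 by edgeR) in RPOA-2. In GRWD-1 it had -0.02 (95% interval -0.23 to 0.19). The nhr-85 peaks at I:13061018-13061443 and I:13062633-13063010 had -0.06 and -0.01 in RPOA-2 and 0.11 and -0.02 in GRWD-1. For the nearest peak at nhr-41 the values were -0.05 (95% interval -0.23 to 0.12) and 0.11 (95% interval -0.05 to 0.27), at nhr-6 0.05 (95% interval -0.22 to 0.33) and -0.07 (95% interval -0.32 to 0.18), and at nhr-91, the counterpart of the germ cell nuclear factor, -0.12 (95% interval -0.58 to 0.35) and -0.32 (95% interval -0.73 to 0.09). The wide interval at nhr-91 goes with its low level of 6.99 CPM, so a change of moderate size was not detectable there.

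The remaining receptors of the set lay close to 0 as well. At nhr-2, which acts in the early embryo, the log2 fold change was 0.04 in RPOA-2 and -0.05 in GRWD-1. At nhr-31, which acts in growth of the excretory cell, it was -0.08 and -0.07, but the nearest 5′ end to that peak was that of C26B2.12. At nhr-40 it was 0.15 and 0.12, at nhr-88 0.16 and -0.09, and at nhr-111 -0.02 and 0.01, each with an interval that held 0.

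**Figure D4:**
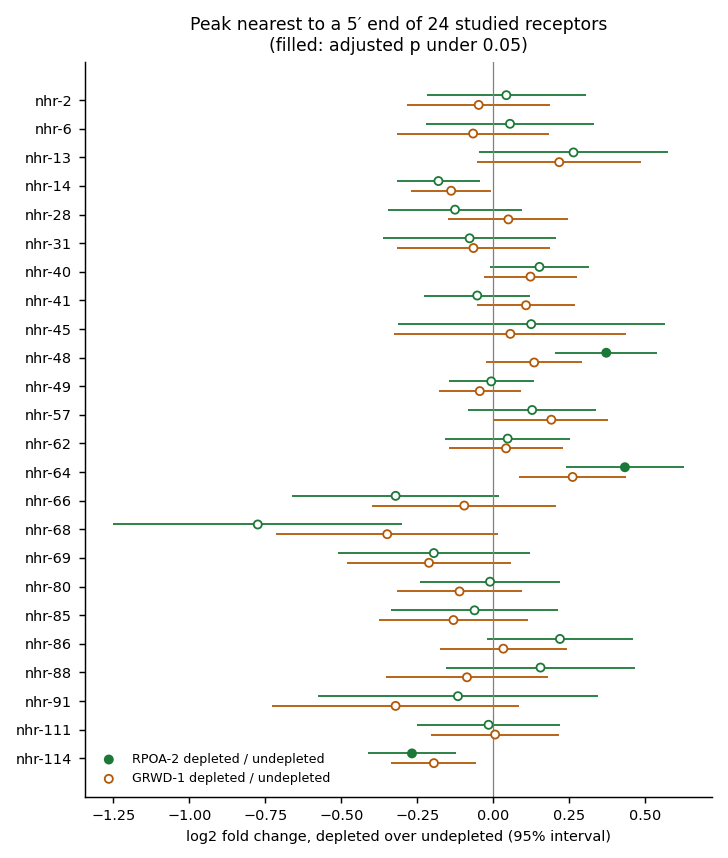
Log2 fold change, depleted over undepleted, of the peak nearest to a 5′ end of 24 receptors with a described role, in RPOA-2 (green, upper) and GRWD-1 (orange, lower), with unadjusted 95% intervals. Filled points, at nhr-48, nhr-64 and nhr-114 in RPOA-2, have an adjusted p under 0.05, and the intervals of 19 receptors in RPOA-2 and 20 in GRWD-1 hold 0.

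Over all 226 nhr peaks, the median log2 fold change was 0.01 in RPOA-2, with 116 peaks (51.3%) above 0, beside a median of 0.00 and 50.8% for all peaks. In GRWD-1 the median was 0.05, with 141 nhr peaks (62.4%) above 0, beside 0.01 and 51.5% for all peaks. From the 5th to the 95th percentile the nhr values ran from -0.28 to 0.33 in RPOA-2 and from -0.22 to 0.32 in GRWD-1.

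The nhr peaks of chromosome V leaned to higher values in depleted larvae. Their median log2 fold change was 0.06 in RPOA-2, with 68 peaks (59.6%) above 0, beside 0.00 and 50.9% over the 5419 peaks of the chromosome. In GRWD-1 the median was 0.09, with 84 peaks (73.7%) above 0, beside 0.03 and 56.8%. The 112 nhr peaks of the other chromosomes had medians of -0.02 in RPOA-2 and 0.01 in GRWD-1. The median of the chromosome V nhr peaks stayed above that of the chromosome in all 28 fits with other settings or 1 library less, at 0.02 to 0.07 in RPOA-2 and 0.07 to 0.10 in GRWD-1. The fit without a filter is among the 28 and repeats the main fit. Neighbouring receptors are not independent, and the shift was not tested.

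Summed by library, before the factors were taken into account, the chromosome V nhr peaks held 2603, 2945, 2694 and 2607 CPM in RPOA-2 depleted larvae, against 2457, 2610, 2683 and 2689 CPM in RPOA-2 undepleted larvae. They held 2642, 3251, 2894 and 2764 CPM in GRWD-1 depleted larvae, against 2602, 2995, 2642 and 2638 CPM in GRWD-1 undepleted larvae. The sums overlapped in both, and replicate 2 was the highest library of both depleted groups and of GRWD-1 undepleted larvae.

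On chromosome II the nhr peaks leaned the other way in RPOA-2, with 3 of 19 above 0 and a median of -0.10, beside 0.01 for all peaks of the chromosome. All 6 peaks at nhr-21 were below 0, and 0 of the 19 was called in edgeR. In GRWD-1 the median of the 19 was -0.03. The 5 peaks at nhr-34 on chromosome IV, named like nhr-21 after the values were seen, had log2 fold changes of -0.30 to -0.16 in GRWD-1, with 0 called, and -0.26 to 0.06 in RPOA-2.

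**Figure D5:**
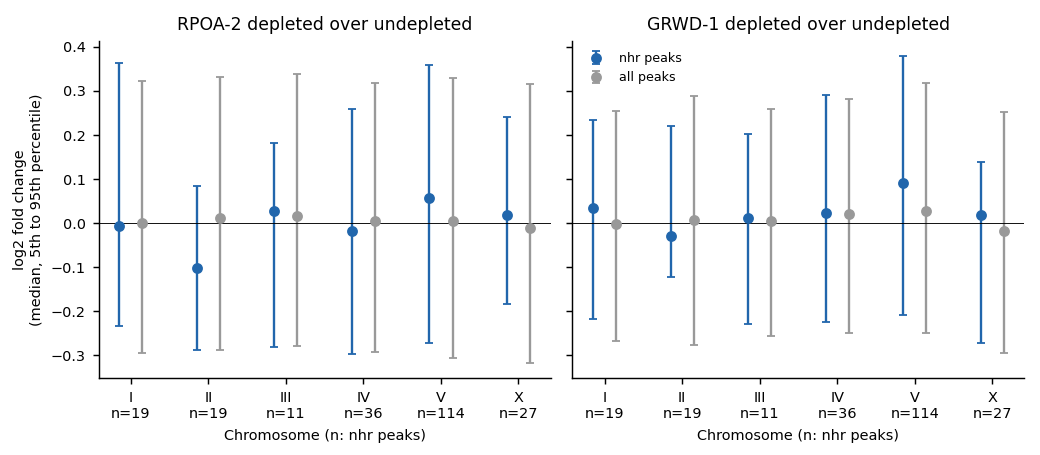
Median log2 fold change (points) with the 5th and 95th percentiles (bars) of nhr peaks in blue and of all peaks in grey on each chromosome, for RPOA-2 depleted over undepleted (left) and GRWD-1 depleted over undepleted (right) larvae. On chromosome V the nhr medians are 0.06 and 0.09, beside 0.00 and 0.03 for all peaks, and the percentile ranges overlap widely.

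Peaks at genes that work with nuclear receptors were examined by the same 1 kb rule. Beside the counts in these lists and in those of tissue markers, 1.69% of all peaks were called in RPOA-2 and 1.38% in GRWD-1. No list was tested against these shares. Nuclear receptors with other names had 9 peaks at 3 of 5 genes, of which 1 fell in both depletions by edgeR. It lies at daf-12 (X:10647494-10648169), which encodes the steroid receptor of the dauer decision. It had 28.1, 32.7, 20.5 and 28.8 CPM in RPOA-2 depleted larvae, against 37.8, 47.9, 34.8 and 30.0 CPM in RPOA-2 undepleted larvae, and in GRWD-1 28.8, 34.3, 29.8 and 26.6 CPM in GRWD-1 depleted larvae, against 43.9, 48.1, 40.97 and 38.3 CPM in GRWD-1 undepleted larvae. In GRWD-1 all depleted libraries were below all undepleted ones, and in RPOA-2 a single undepleted library lay within the depleted values. Log2 fold changes were -0.52 (SE 0.11, adjusted p = 0.00261) in RPOA-2 and -0.53 (SE 0.10, adjusted p = 0.000283) in GRWD-1 by edgeR's quasi-likelihood test.

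Cofactors and hormone synthesis genes had 8 peaks at 2 of 7 listed genes, with 1 lower peak in each depletion and 0 higher ones by edgeR, both at din-1, which encodes a corepressor of DAF-12. The peak at II:11616018-11616658 had a log2 fold change of -0.53 (SE 0.12, adjusted p = 0.00675) in RPOA-2 and -0.34 (SE 0.11, adjusted p = 0.106) in GRWD-1 by edgeR. The peak at II:11617067-11621980 had -0.13 (SE 0.07, adjusted p = 0.451) in RPOA-2 and -0.36 (SE 0.07, adjusted p = 0.000174) in GRWD-1 by edgeR.

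Known targets of worm receptors had 16 peaks at 11 of 14 listed genes, of which 2 fell upon RPOA-2 depletion and 0 changed upon GRWD-1 depletion by edgeR. The peak at acs-2 (V:15566279-15570001), an acyl-CoA synthetase gene switched on through NHR-49, had 262, 341, 252 and 245 CPM in RPOA-2 depleted larvae, against 324, 437, 287 and 289.8 CPM in RPOA-2 undepleted larvae. The groups overlapped, with depleted replicate 2 above 3 of the 4 undepleted libraries. The log2 fold change was -0.37 (SE 0.08, adjusted p = 0.00125) in RPOA-2 and 0.05 (SE 0.07, adjusted p = 0.868) in GRWD-1 by edgeR. The peak at acdh-1 (I:6498588-6499009), an acyl-CoA dehydrogenase gene of the propionate shunt, had a log2 fold change of -0.66 (SE 0.18, adjusted p = 0.0261) in RPOA-2 and -0.39 (SE 0.15, adjusted p = 0.236) in GRWD-1 by edgeR. The acs-2 and nhr-49 peaks are values at separate genes and show no link between them. The calls at daf-12, din-1, acs-2 and acdh-1 were not followed through the alternative fits.

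Many receptors act in the intestine, and marker peaks of tissues were examined beside these results. The 6 peaks at 5 of 8 intestine markers had a median log2 fold change of -0.16 in both depletions, with 0 called. Their summed level was 248 to 279 CPM in RPOA-2 depleted larvae against 284 to 322 CPM in RPOA-2 undepleted larvae, and 242 to 273 CPM in GRWD-1 depleted larvae against 267 to 305 CPM in GRWD-1 undepleted larvae. The intestine sums were apart in RPOA-2 and overlapped in GRWD-1. The 22 epidermis peaks at 7 of 8 genes had medians of -0.12 in RPOA-2 and -0.08 in GRWD-1, with 1 call, a fall at ajm-1 in GRWD-1. Their summed level was 698 to 752 CPM in RPOA-2 depleted larvae against 748 to 826 CPM in RPOA-2 undepleted larvae, and 691 to 765 CPM in GRWD-1 depleted larvae against 746 to 842 CPM in GRWD-1 undepleted larvae. Body wall muscle (22 peaks at 8 of 8 genes) and neurons (9 peaks at 4 of 8 genes) had medians between -0.01 and 0.05 with 0 calls, and the germ line list had 1 peak for 2 of 8 genes. The part of tissue shares in the falls at nhr-114, nhr-66, daf-12, acs-2 and acdh-1 was not tested.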

How the data were processed

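ATAC-seq was performed by the authors on 16 libraries of whole L1 larvae. For the authors' files, fastp trimmed the reads, bowtie 2 placed them on WBcel235, and SAMBLASTER marked duplicates. Reads that were mitochondrial, unmapped or of poor mapping quality were dropped, and MACS2 peaks of the single libraries were merged with Homer. The deposited values are whole-number counts of reads per merged peak, made by the authors with featureCounts 2.0.1 without duplicates and not normalized. As those reads were dropped, receptors with near-identical copies may hold fewer reads, which was not tested. Genome sequence was not used here.

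The model was fitted to these counts with edgeR 4.0.16 in R 4.3.3 (glmQLFit, glmQLFTest), TMM scaling and filterByExpr, which removed 0 of 29131 peaks. Its terms were the 4 genotypes plus 2 factors of unwanted variation, computed as RUVg does from the 13897 peaks (47.7%) with an adjusted p of at least 0.75 in a DESeq2 1.42.0 comparison of the RPOA-2 strains. The common biological coefficient of variation was 8.14%. Fold changes are depleted over undepleted. The standard error is the size of the log2 fold change over the square root of the quasi-likelihood F, and 95% intervals use the t distribution. CPM are not corrected for the factors. Over all peaks together, chi-square per degree of freedom was 1.87 to 11.8 over 24 pairs of libraries of a strain, so no pair agreed within counting error. This value does not give the part of counting error at the nhr peaks, whose median held 48 to 268 counts per library.

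Peaks named are all nhr peaks called in either depletion or in the direct or difference test, the peak nearest to a 5′ end of 27 studied receptors, and the 3 highest and 3 lowest levels per kb. The members and the lists of receptors, partners, targets and tissue markers were chosen with earlier results of these data known. Of the lists, ncoa-1 and lin-4 were not matched and not analysed here. The alternatives were DESeq2, other numbers of factors, other control peaks, a block of the replicate numbers, other scaling, filters, thresholds, distances and libraries. The median of chromosome V was added after the data were seen.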

Additional observations from a re-analysis of the deposited data

Results flagged for a closer look

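At 9 of 132 groups of 4 replicates, 128 of them at the 32 named peaks and 4 of library totals, a single library stood apart from the other 3 by Dixon's criterion, which chance meets in about 1 in 20 groups. At nhr-64, GRWD-1 depleted replicate 2 had 83.9 CPM, against 50.3 to 51.4 CPM in the other replicates of its group. At nhr-48, RPOA-2 depleted replicate 2 had 180.6 CPM, against 101.3 to 104.2 CPM. Replicate 2 was also high at nhr-57, with 54.3 CPM in GRWD-1 undepleted larvae, at nhr-68, with 15.5 CPM in GRWD-1 undepleted larvae, and at nhr-88, with 22.9 CPM in RPOA-2 depleted larvae. The other libraries that stood apart were GRWD-1 depleted replicate 1 at nhr-2, with 25.1 CPM, RPOA-2 depleted replicate 3 at nhr-41, with 105.2 CPM, and GRWD-1 undepleted replicate 3 at nhr-85, with 26.4 CPM. These 8 were the highest of their group. At nhr-1, RPOA-2 undepleted replicate 1 was the lowest of its group, with 131 CPM, against 181 to 190.1 CPM in the other replicates.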

How the results depend on the processing

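The number of nhr peaks called was 3 higher and 2 lower in RPOA-2 and 3 higher and 0 lower in GRWD-1. The share of all peaks called in the same fit and direction stands in brackets. With 0 factors or 1 factor it was 0 in each (0.0515% to 0.336%). With control peaks of the GRWD-1 strains it was 0 higher (0.192%) and 0 lower (0.254%) in RPOA-2 and 1 higher in GRWD-1 (0.367%). With 3 factors, 4 were lower in RPOA-2 (0.556%) and 1 was higher in GRWD-1 (0.189%). With only the 8 libraries of a comparison, 1 was lower in RPOA-2 (0.453%) and 0 were higher in GRWD-1 (0.0584%). At an adjusted p under 0.1, 4 were lower in RPOA-2 (0.868%) and 5 higher in GRWD-1 (0.961%). Leaving out 1 library gave 0 to 5 higher (0.0584% to 2.03%) and 0 to 2 lower (0.0584% to 0.57%) in RPOA-2, 0 to 4 higher (0.0961% to 0.752%) and 0 to 0 lower (0.203% to 0.814%) in GRWD-1, and 0 to 0 for the direct comparison and for the difference of effects. The cause was not tested. The counts in GRWD-1 lower, direct and difference tests stayed at 0 in the other fits, and no direction was reversed.

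With a replicate block in place of the factors, 4 peaks were higher (1.46%) and 1 was lower (0.323%) in RPOA-2 and 2 were higher in GRWD-1 (0.295%), without calls at nhr-157 in GRWD-1 (edgeR adjusted p = 0.105) and at nhr-114 (adjusted p = 0.165). With the block and the 2 factors, 3 were higher (0.693%) and 0 lower (0.35%) in RPOA-2 and 3 were higher in GRWD-1 (0.487%), without calls at nhr-157 in GRWD-1 (edgeR adjusted p = 0.0578), nhr-114 (adjusted p = 0.0887) and nhr-66 (adjusted p = 0.0881). Deviations of same-numbered replicates from their group means correlated at -0.02 to 0.24 in RPOA-2 and 0.04 to 0.42 in GRWD-1, with 2 of 4 pairs over 0.1 and 2 of 4 libraries correlated best with their own number in each. Between RPOA-2 depleted and GRWD-1 depleted larvae they correlated at 0.10 to 0.44, with 3 of 4 pairs over 0.1 and 4 of 4 libraries best with their own number, a hint of pairing from the data. As not every pair was over 0.1, the numbers were not taken to pair the samples. The labels give 4 processing batches with a replicate of each strain, but not which number.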
